A study of Mus musculus with 4 samples.

Results

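The genes described here are 10 genes of the glutathione and thioredoxin systems that are known targets of the transcription factor NRF2, read by gene name in a count table of 54532 genes. They are *Slc7a11*, *Gclc*, *Gclm*, *Gsr*, *Txnrd1*, *Srxn1*, *Prdx1*, *G6pdx*, *Me1* and *Sqstm1*. All 10 were in the table, and all 10 had at least 10 reads in at least 1 library, as did 13715 genes of the table. The measurements are RNA-seq read counts from 4 libraries of peritoneal macrophages of WT mice. Each library stands for a different condition: normal medium (0% 4T1-CM) with DMSO, normal medium with 10 µM CH223191, or 30% 4T1-CM with either DMSO or 10 µM CH223191. 4T1-CM is medium conditioned by 4T1, a mouse mammary carcinoma line, CH223191 is an inhibitor of the aryl hydrocarbon receptor AHR, and DMSO is its solvent. The labels give neither strain, sex, age nor time in culture. The study's methods describe peritoneal macrophages elicited with thioglycollate in BALB/c mice, and whether cells of several animals were pooled is not stated for these libraries.

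NRF2 is held by KEAP1 in the cytoplasm and marked for degradation. Oxidants and electrophiles that modify KEAP1 release it, and it then binds antioxidant response elements as a dimer with a small MAF protein, in competition with BACH1. Its targets supply cystine and glutathione, reduce thioredoxin and peroxiredoxins, and make the NADPH that both systems spend, and in macrophages they limit damage from the cell's own oxidants.

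With 1 library per condition there was no spread between cultures to test against. Each difference is therefore a log2 ratio of 2 libraries after TMM scaling, and its 95% interval is the exact Clopper-Pearson interval of how a gene's reads were split between them. Such an interval takes in counting error alone and says nothing of how cultures of a condition vary. A gene was called when it was at least 2-fold higher or lower. The 4 libraries held 15535405 to 17557127 reads, and a count of 0 allows a level of up to 0.189 CPM (reads relative to the TMM-scaled library size) in the library where that limit was highest. The median log2 ratio of all 13715 genes lay between 0.00 and 0.02 in the 4 comparisons. Summed, the 10 genes made up 0.591% and 0.643% of all reads in the normal medium libraries and 0.518% and 0.478% in those with 4T1-CM. Most of these reads were of *Prdx1* alone, 60294 of 91835 in normal medium with DMSO and 47692 of 78322 in 4T1-CM with CH223191. Wherever a pair of read counts or levels is given for a medium, the first is the DMSO library and the second the CH223191 library.

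In 4T1-CM a single gene of the 10, *Slc7a11*, passed 2-fold, and it did so by a wide margin with and without the inhibitor. The other 9 stayed between a log2 ratio of -0.52 and 0.86 with DMSO, and between -0.77 and 0.85 with CH223191. Of all 10 genes, 1 was at least 2-fold higher in 4T1-CM with DMSO, beside 12.2% of all genes kept, and 0 were at least 2-fold lower, beside 6.11%. With CH223191 the counts were again 1 higher, beside 12% of all genes, and 0 lower, beside 7.86%. In both comparisons together 1 gene was higher, beside 8.18% of all genes, and 0 were lower, beside 3.38%. The median log2 ratio of the 10 genes was -0.07 with DMSO and -0.24 with CH223191. A share of 1 in 10 is close to the background, so the count says nothing particular about the group.

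**Figure D1:**
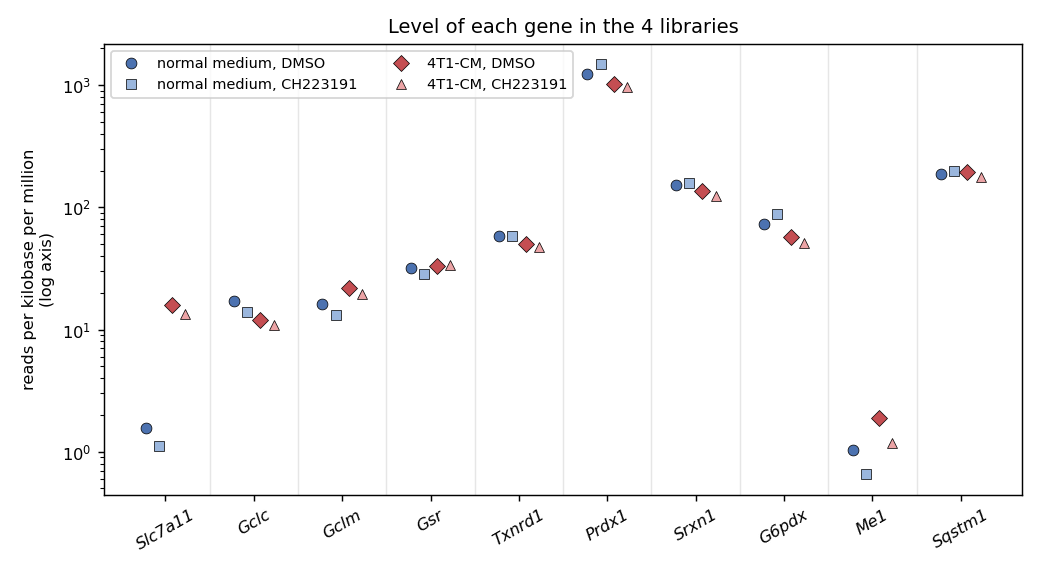
Level of each of the 10 genes in each of the 4 libraries, as RPKM (scaled reads divided by the length of the gene model) on a log axis, with 1 point per library and no error bars because each condition has 1 library. *Prdx1* lies highest and *Me1* lowest in every library, and *Slc7a11* moves from 1.55 and 1.12 RPKM in normal medium, near *Me1*, to 15.8 and 13.5 RPKM in 4T1-CM, near *Gclc*.

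Compared per length, the 10 genes spanned a wide range of levels. *Prdx1*, the peroxiredoxin that reduces hydrogen peroxide, had by far the highest mean over the 4 libraries at 1178 RPKM, followed by the autophagy receptor *Sqstm1* at 189.8 RPKM and *Srxn1* at 142 RPKM. *G6pdx* and *Txnrd1* came next with mean levels of 67.2 and 53.6 RPKM. *Gsr* followed at 31.7 RPKM, then *Gclm* at 17.7 and *Gclc* at 13.5 RPKM, so that the modifier and catalytic subunits of 1 enzyme stood next to each other. *Slc7a11* had a mean of 7.98 RPKM and *Me1* one of 1.18 RPKM. The ranges over the 4 libraries overlapped for *G6pdx* (51.4 to 87.5 RPKM) and *Txnrd1* (47.1 to 58.7 RPKM), and for *Gclm* (13.2 to 21.9 RPKM) and *Gclc* (10.8 to 17.1 RPKM). *Slc7a11* was the gene with the widest range over the 4 libraries, 3.82 on the log2 CPM scale. It stood at 1.55 and 1.12 RPKM in normal medium, below *Gclc*, and at 15.8 and 13.5 RPKM in 4T1-CM, above *Gclc* at 11.9 and 10.8 RPKM.

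*Slc7a11* encodes xCT, the light chain of the cystine and glutamate exchanger, which brings in the cystine from which glutathione is built. The gene lies on chromosome 3 from 49892526 to 50443614 on the minus strand (GRCm38). Reads of *Slc7a11* numbered 344 and 248 in normal medium, against 3853 and 3042 in 4T1-CM. On the CPM scale the levels were 21.6 and 15.6 in normal medium, and 220.1 and 187 in 4T1-CM. Both 4T1-CM libraries were thus far above both libraries in normal medium, and in bulk RNA more cells that express a gene and more of its RNA per cell cannot be told apart. *Slc7a11* was 10.2-fold higher in 4T1-CM with DMSO, a log2 ratio of 3.35 (95% counting interval 3.19 to 3.51). With CH223191 it was 12.0-fold higher, a log2 ratio of 3.58 (3.40 to 3.78). Ranked among the 13715 genes by log2 ratio, it was number 255 with DMSO and number 200 with CH223191.

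With CH223191 the *Slc7a11* level was lower in either medium, by less than 2-fold. The log2 ratio of CH223191 to DMSO was -0.47 in normal medium (-0.71 to -0.23) and -0.23 in 4T1-CM (-0.30 to -0.16). The response to 4T1-CM was 0.23 log2 units larger with CH223191 than with DMSO, with a counting error (a single standard error) of 0.13. On the level of the intervals given here, this could not be told from no difference. Of the 50-base words of its transcripts, 1.47% also occur in transcripts of other genes.

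Markers of cell types were read for all libraries. All 7 macrophage genes had reads in every library, with a summed level of 14028 and 18261 CPM in normal medium and 37499 and 40034 CPM in 4T1-CM, led by *Lyz2*. Of the 7, 4 were at least 2-fold higher in 4T1-CM with DMSO, beside 12.2% of all genes, and 3 with CH223191, beside 12%. The 5 fibroblast genes summed to 57.3 and 27.0 CPM in normal medium and 145 and 123 CPM in 4T1-CM, with *Lum* at 0 reads in 3 of the 4 libraries. The 9 neutrophil genes summed to 67.6 and 74.6 CPM against 242 and 181 CPM, with *Ly6g*, *S100a9* and *Retnlg* at 0 reads throughout. With DMSO the rise was largely that of *Mmp8*, with 35 and 21 reads in normal medium and 2142 and 759 in 4T1-CM. With CH223191 *Mmp8* went from 1.32 to 46.7 CPM and *Csf3r* from 60.3 to 108 CPM. *S100a8* was higher as well, with 99 and 190 reads against 560 and 412, while *Cxcr2* went from 12 and 9 reads to 2 and 0. The 4 B cell genes summed to 20.1 and 34.2 CPM in normal medium and 7.65 and 4.74 CPM in 4T1-CM, almost all of it *Ighm*, and the other 3 had at most 6 reads. The 5 genes of epithelial tumour cells summed to 0.44 to 1.35 CPM with *Krt19* at 0. The 3 T cell genes had 0 reads, and the mast cell and mesothelial genes stayed at or below 0.57 CPM. The part of these cell types in the *Slc7a11* and other differences was not tested.

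The sequence upstream of *Slc7a11* is shown because it is the gene that stood apart. The 250 bases before its RefSeq start are on GRCm38.p6 at chr3:50443614-50443863, read on the minus strand and written 5′ to 3′. Capitals mark the letters of the amino acid response motif TGATGNAA, which ATF4 with C/EBP proteins is known to bind, searched on both strands.
Slc7a11: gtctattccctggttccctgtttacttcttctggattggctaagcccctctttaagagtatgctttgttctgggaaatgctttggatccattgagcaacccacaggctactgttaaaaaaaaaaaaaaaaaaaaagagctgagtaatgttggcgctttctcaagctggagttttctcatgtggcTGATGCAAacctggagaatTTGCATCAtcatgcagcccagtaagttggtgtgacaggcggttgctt
The motif occurs in this window once on each strand, with first bases 66 and 47 bases before the start. It occurs in 3.97% of 32841 mouse promoters of the same 300 bases (250 before and 50 after the start), and in no other promoter of the 8 genes with an entry (11 windows). The antioxidant response motif was searched only in the form TGACNNNGC, on both strands, and that form was not found in the *Slc7a11* window. The motifs were chosen after the values of the genes were known, and a match describes letters and not a bound site.

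Both glutamate-cysteine ligase subunits, which together make the first and rate-limiting step of glutathione synthesis, were read apart from each other. *Gclc*, the catalytic subunit, lies on chromosome 9 from 77754535 to 77794485 on the plus strand. It had 1027 and 836 reads in normal medium and 786 and 662 in 4T1-CM. It was thus lower in either 4T1-CM library than in either library in normal medium. Its log2 ratio to normal medium was -0.52 with DMSO (-0.66 to -0.39) and -0.37 with CH223191 (-0.52 to -0.22).

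*Gclm*, the modifier subunit that raises the activity of the ligase, lies on chromosome 3 from 122245557 to 122270732 on the plus strand. It had 1611 and 1320 reads in normal medium and 2412 and 2000 in 4T1-CM. The direction was the opposite of that of *Gclc*. Its log2 ratio to normal medium was 0.45 with DMSO (0.36 to 0.54) and 0.57 with CH223191 (0.47 to 0.67). Both subunits were lower with CH223191 in normal medium, with log2 ratios of -0.29 for *Gclc* (-0.43 to -0.16) and -0.28 for *Gclm* (-0.39 to -0.18). In 4T1-CM the ratios were -0.14 for *Gclc*, with an interval that included 0 (-0.29 to 0.01), and -0.16 for *Gclm* (-0.25 to -0.08). For *Gclm*, 4.58% of its 50-base words also occur in other genes, among them *Ppia* with 5282 to 15501 reads and *Gm10123* with 1557 to 3217 reads. *Gm17494*, which overlaps it on the other strand by 296 exonic bases, had 0 to 7 reads.

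*Gsr* encodes glutathione reductase, which returns oxidised glutathione to its reduced form at the cost of NADPH. It lies on chromosome 8 from 33652523 to 33698163 on the plus strand. It had 1397 and 1255 reads in normal medium and 1584 and 1498 in 4T1-CM. These are among the most even values of the 10 genes. Its log2 ratio to normal medium was 0.05 with DMSO (-0.06 to 0.15) and 0.22 with CH223191 (0.11 to 0.33). Its ratio of CH223191 to DMSO was -0.15 in normal medium (-0.26 to -0.04) and 0.03 in 4T1-CM (-0.08 to 0.13).

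The 3 genes of the thioredoxin and peroxiredoxin branch were all slightly lower in 4T1-CM. *Prdx1* (chromosome 4, 116685544 to 116700822, plus strand) had 60294 and 71426 reads in normal medium and 54887 and 47692 in 4T1-CM. Against normal medium its log2 ratio was -0.27 with DMSO (-0.29 to -0.25) and -0.61 with CH223191 (-0.63 to -0.60). The higher *Prdx1* level with CH223191 in normal medium and the lower level in 4T1-CM both enter the second value. Of its 50-base words 8.81% occur in other genes, and the copy that shares the most, *Gm21399*, had 409 to 1011 reads.

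*Txnrd1* encodes the cytosolic thioredoxin reductase, a selenoprotein that passes electrons from NADPH to thioredoxin. The gene (chromosome 10, 82833951 to 82897712, plus strand) had 6555 and 6619 reads in normal medium and 6258 and 5418 in 4T1-CM. Against normal medium its log2 ratio was -0.20 with DMSO (-0.25 to -0.15) and -0.32 with CH223191 (-0.37 to -0.27). *Srxn1* encodes sulfiredoxin, which repairs peroxiredoxins that have been oxidised past their working state. The gene (chromosome 2, 152105516 to 152111376, plus strand) had 6829 and 7093 reads in normal medium and 6679 and 5688 in 4T1-CM. Its log2 ratio was -0.17 with DMSO (-0.22 to -0.12) and -0.35 with CH223191 (-0.40 to -0.30), close to that of *Txnrd1*. No 50-base word of *Txnrd1*, *Srxn1*, *Gclc* or *Gsr* was shared with another gene, 0% of each.

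The pair of NADPH-producing enzymes went opposite ways. *G6pdx* encodes glucose-6-phosphate dehydrogenase, the entry enzyme of the pentose phosphate pathway. It lies on chromosome X from 74409483 to 74429194 on the minus strand and had 3603 and 4284 reads in normal medium and 3060 and 2570 in 4T1-CM. Its log2 ratio to normal medium was -0.37 with DMSO (-0.44 to -0.30) and -0.77 with CH223191 (-0.84 to -0.70), which is 1.70-fold lower and the lowest ratio of the 10 genes in that comparison. *Ikbkg* overlaps it on the other strand by 418 exonic bases and had 1240 to 1520 reads, and 16.9% of the 50-base words of *G6pdx* occur in other genes. Whether reads were counted by strand is not stated, so reads of the shared stretch cannot be assigned with certainty.

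*Me1* encodes the cytosolic malic enzyme, which makes NADPH from malate. It was the gene with the fewest reads of the 10 (chromosome 9, 86581371 to 86695953, minus strand), with 63 and 40 in normal medium and 126 and 74 in 4T1-CM. Its log2 ratio to normal medium was 0.86 with DMSO (0.42 to 1.33) and 0.85 with CH223191 (0.28 to 1.45). These are 1.82-fold and 1.80-fold higher, and both intervals include 2-fold. *Me1* was also lower with CH223191 in either medium, at a log2 ratio of -0.65 in normal medium (-1.26 to -0.06) and -0.66 in 4T1-CM (-1.09 to -0.24). Of its 50-base words 28.3% occur in other genes, of which the one that shares the most, *Gm7049*, had 0 to 2 reads.

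*Sqstm1* encodes p62, an autophagy receptor that binds KEAP1 and so acts on NRF2 while being its target. It lies on chromosome 11 from 50199366 to 50210827 on the minus strand. It had 10112 and 10656 reads in normal medium and 11335 and 9678 in 4T1-CM. Its log2 ratio was 0.03 with DMSO, with an interval that included 0 (-0.01 to 0.07), and -0.17 with CH223191 (-0.21 to -0.13). *Mrnip*, on the other strand, overlaps it by 580 exonic bases and had 7 to 19 reads, while *Sqstm1* had at least 9678.

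**Figure D2:**
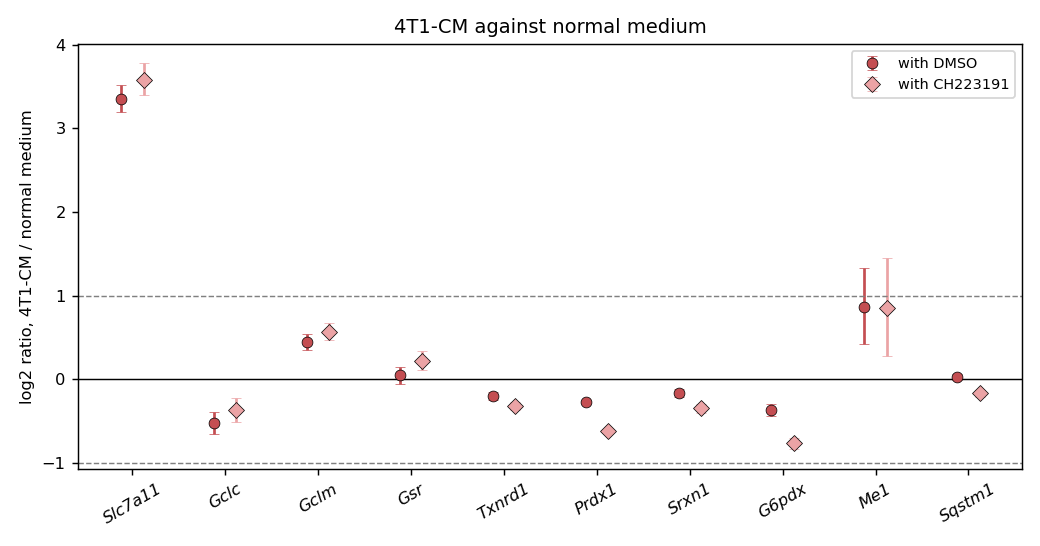
Log2 ratio of 4T1-CM to normal medium for each of the 10 genes, with DMSO (circles) and with CH223191 (diamonds). Bars are 95% counting intervals and dashed lines mark 2-fold. *Slc7a11* lies at 3.35 and 3.58, and every other gene lies between the dashed lines.

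With CH223191 none of the 10 genes passed 2-fold in either medium. In normal medium 0 of 10 were at least 2-fold higher, beside 4.84% of all genes, and 0 were lower, beside 3.31%. In 4T1-CM 0 were higher, beside 2.75%, and 0 were lower, beside 2.66%. In both media together 0 were higher, beside 0.649%, and 0 were lower, beside 0.481%. At these background shares a count of 0 of 10 is not a result about the group. In normal medium 5 of the 10 log2 ratios were above 0 and 5 below, with a median of -0.07. In 4T1-CM 9 of the 10 were below 0, all except *Gsr* at 0.03, and the median was -0.13. That of all genes in the same comparison was 0.00.

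In normal medium the inhibitor ratios lay on both sides of 0. *Me1* was the lowest at -0.65, and *Gsr* was at -0.15. *Slc7a11*, *Gclc* and *Gclm*, which supply cystine and glutathione, were lower with CH223191, at log2 ratios of -0.47, -0.29 and -0.28. *Prdx1*, *Srxn1* and *G6pdx* were higher, at 0.25 (0.23 to 0.26), 0.06 (0.01 to 0.11, but 0.00 when scaled by total counts) and 0.25 (0.19 to 0.32). *Sqstm1* was higher as well, at 0.08 (0.04 to 0.12), and the interval of *Txnrd1* at 0.02 included 0 (-0.03 to 0.07). In 4T1-CM these last 5 genes were all lower with CH223191. The log2 ratios there were -0.09 for *Prdx1* (-0.11 to -0.08), -0.12 for *Srxn1* (-0.18 to -0.07) and -0.14 for *G6pdx* (-0.22 to -0.07). *Sqstm1* was at -0.12 (-0.16 to -0.08) and *Txnrd1* at -0.10 (-0.15 to -0.05). The largest of these 5 ratios in 4T1-CM was 1.10-fold, and variation between cultures could not be measured.

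The same values give the change in the response to 4T1-CM. The log2 ratio of 4T1-CM to normal medium with CH223191, minus that with DMSO, was -0.40 for *G6pdx* and -0.34 for *Prdx1*, with counting errors of 0.05 and 0.01. The same difference was -0.20 for *Sqstm1*, -0.18 for *Srxn1* and -0.12 for *Txnrd1*, with counting errors of 0.03, 0.04 and 0.04. For the glutathione genes the difference lay the other way, at 0.18 for *Gsr*, 0.15 for *Gclc* and 0.12 for *Gclm*. Their counting errors were 0.08, 0.10 and 0.07. Each counting error is a single standard error, not an interval like those given for the ratios. On the level of those intervals, the differences of *Gclc* and *Gclm* could not be told from no difference. For *Me1* the difference was -0.01 with a counting error of 0.36, so that its reads could not show a difference of the size of the others. None of these differences could be tested with 1 library per condition.

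**Figure D3:**
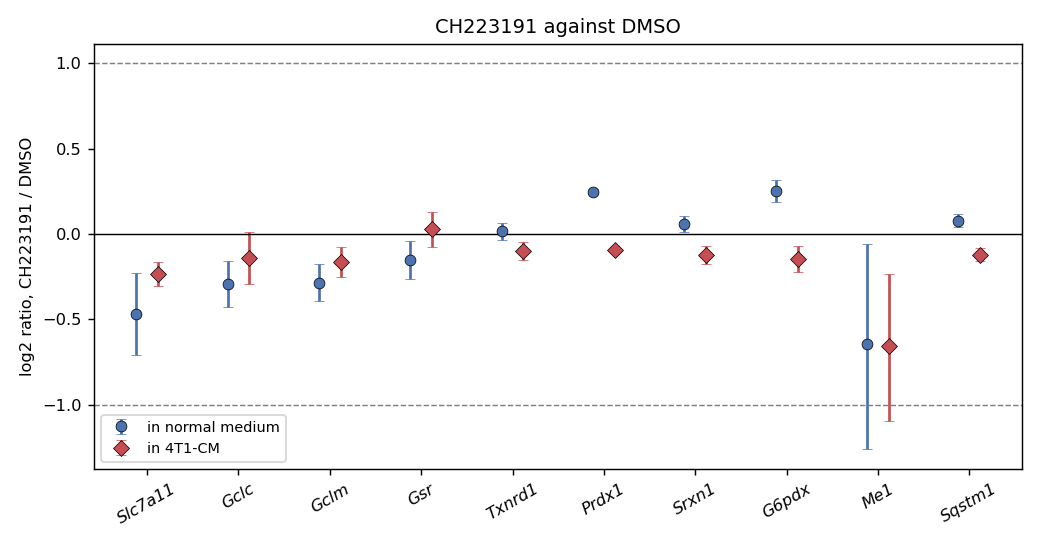
Log2 ratio of CH223191 to DMSO for each of the 10 genes, in normal medium (circles) and in 4T1-CM (diamonds). Bars are 95% counting intervals and dashed lines mark 2-fold. *Prdx1*, *Srxn1*, *G6pdx* and *Sqstm1* lie above 0 in normal medium and below 0 in 4T1-CM, and *Slc7a11*, *Gclc*, *Gclm* and *Me1* lie below 0 in both.

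An additive model with medium and inhibitor as terms can be fitted to the 4 libraries, with 1 residual degree of freedom. It treats the 2 libraries of a medium as alike apart from the inhibitor, and its p-values rest on that. In the fit of edgeR, 3 of the 10 genes were higher in 4T1-CM at an adjusted p under 0.05, beside 16.4% of all genes, and 3 were lower, beside 16.2%. The higher genes were *Slc7a11* (log2 difference 3.47, adjusted p = 4.8e-08), *Gclm* (0.51, adjusted p = 0.0101) and *Me1* (0.86, adjusted p = 0.0190). The lower genes were *G6pdx* (-0.57, adjusted p = 0.0102), *Prdx1* (-0.44, adjusted p = 0.0155) and *Gclc* (-0.44, adjusted p = 0.0201). With DESeq2, 2 were higher, *Slc7a11* and *Gclm*, beside 9.35% of all genes with an adjusted p, and 2 were lower, *G6pdx* and *Prdx1*, beside 9.63%. *Me1* and *Gclc* were not called there, with adjusted p = 0.222 and 0.11. For CH223191, edgeR called 0 of the 10 higher, beside 0.0729% of all genes, and 0 lower, beside 0.00729%. DESeq2 also called 0 higher, beside 0.14% of the 9992 genes with an adjusted p, and 0 lower, beside 0.01%. At an unadjusted p under 0.05 edgeR had 2 of the 10 for CH223191, *Slc7a11* and *Me1*, both lower, and DESeq2 had 0. Over all genes, edgeR called 11 for CH223191 and had 879 at an unadjusted p under 0.05, and DESeq2 had 15 and 202.

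Upstream sequences of 3 genes that went opposite ways are shown to compare their antioxidant response motifs. *Gclm* was higher in 4T1-CM, and *Prdx1* and *G6pdx* were lower. Each line holds the 250 bases before the RefSeq start on GRCm38.p6, written 5′ to 3′ on the strand of the gene, with the letters of TGACNNNGC or its reverse complement in capitals. The stretches are chr3:122245307-122245556 on the plus strand for *Gclm*, chr4:116685349-116685598 on the plus strand for *Prdx1* and chrX:74428881-74429130 on the minus strand for *G6pdx*.
Gclm: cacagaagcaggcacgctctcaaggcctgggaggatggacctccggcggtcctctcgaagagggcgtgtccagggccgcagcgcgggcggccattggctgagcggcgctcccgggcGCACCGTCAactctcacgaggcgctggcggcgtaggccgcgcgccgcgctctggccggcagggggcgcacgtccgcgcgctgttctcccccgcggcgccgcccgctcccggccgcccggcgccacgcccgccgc
Prdx1: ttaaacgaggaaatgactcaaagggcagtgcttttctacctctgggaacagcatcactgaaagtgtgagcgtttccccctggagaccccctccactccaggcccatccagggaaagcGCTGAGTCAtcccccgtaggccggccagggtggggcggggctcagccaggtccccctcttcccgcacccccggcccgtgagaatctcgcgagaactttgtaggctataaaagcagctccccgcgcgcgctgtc
G6pdx: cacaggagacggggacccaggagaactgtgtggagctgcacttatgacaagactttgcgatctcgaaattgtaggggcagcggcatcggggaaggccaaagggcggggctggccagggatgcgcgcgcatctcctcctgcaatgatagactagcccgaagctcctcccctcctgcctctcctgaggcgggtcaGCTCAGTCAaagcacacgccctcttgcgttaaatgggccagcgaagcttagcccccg
The motif begins 134 bases before the start in *Gclm*, 133 in *Prdx1* and 57 in *G6pdx*, in each on the strand opposite to the gene. It was also present in *Me1* 6 bases before the start of 1 of 2 windows, in *Txnrd1* 92 bases before 1 of 3 starts, and in *Srxn1* 29 bases after the start. In all, 6 of the 8 genes with a promoter entry, and 6 of their 11 windows, held it, beside 12.4% of all promoters, and they include genes that were higher and genes that were lower in 4T1-CM. *Gclc* and *Gsr* had no entry. The *Sqstm1* window held none of the 5 motifs searched.

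The other 3 motifs were searched in the same windows on both strands. The AHR response core GCGTG was in windows of *G6pdx*, *Gclm*, *Srxn1* and *Txnrd1*, and it is in 32.4% of all promoters. The STAT motif TTCNNNGAA, whose reverse complement has the same form, was in those of *Slc7a11* and *Txnrd1*, beside 8.30% of all promoters. The AP-1 motif TGANTCA was in those of *Me1*, *Prdx1* and *Srxn1*, beside 7.81%, and in *Prdx1* and *Me1* it overlaps the antioxidant response motif.

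The 3 genes whose pattern over the 4 libraries was most like that of *Slc7a11* were taken from 8322 genes whose mean level reached 10 CPM. Likeness is the root mean square difference of log2 CPM over the 4 libraries after centring each gene on its own mean. *Carmil1*, a regulator of actin capping, was nearest at 0.118, with 63 and 49 reads in normal medium and 849 and 688 in 4T1-CM. The inflammatory cytokine gene *Il1a* followed at 0.170, with 260 and 231 reads in normal medium and 2628 and 2190 in 4T1-CM. *Traf1*, a signalling adaptor of the TNF receptor family, came next at 0.179, with 47 and 45 reads in normal medium and 522 and 423 in 4T1-CM. All 3 were high in both 4T1-CM libraries and slightly lower with CH223191 in either medium, and they were chosen for this likeness. In normal medium the log2 ratio of CH223191 to DMSO was -0.36 for *Carmil1*, -0.17 for *Il1a* and only -0.06 for *Traf1*. Counting intervals are not given for these genes. At these read numbers, counting error alone could account for each of the normal medium ratios.

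Most of the genes that control NRF2 changed by less than 2-fold at the RNA level, and in either comparison 4 lay above 0 and 5 below. Of 9 such genes, 1 was at least 2-fold higher in 4T1-CM with DMSO and 0 were lower, with a median log2 ratio of -0.04. With CH223191 it was 0 and 0, with a median of -0.03. For this and each following list, the shares of all genes were 12.2% higher and 6.11% lower with DMSO. With CH223191 those shares were 12% and 7.86%. The gene past 2-fold was *Maff*, a small MAF partner, with 121 and 157 reads in normal medium and 319 and 303 in 4T1-CM. Its log2 ratios were 1.26 (0.96 to 1.58) and 0.92 (0.64 to 1.21). *Nfe2l2*, the gene of NRF2, had 6090 and 5907 reads in normal medium and 7152 and 5728 in 4T1-CM. *Keap1* had 1025 and 1065 against 882 and 825, at log2 ratios of -0.35 (-0.48 to -0.22) and -0.40 (-0.53 to -0.27). The lowest log2 ratio with DMSO was that of *Bach1* at -0.46, which was at -0.03 with CH223191. The lowest with CH223191 was that of *Mafk* at -0.53. RNA counts do not measure NRF2 protein or its place in the cell. Genes of this and the following lists that are named without being the highest, lowest or most abundant of their list were chosen after their values were seen.

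Of 17 other glutathione genes, 15 had enough reads. In 4T1-CM with DMSO, 3 of them were at least 2-fold higher and 1 was lower, and the median log2 ratio was 0.10. *Glrx*, the glutaredoxin that removes glutathione from proteins, had 578 and 809 reads in normal medium and 4238 and 3661 in 4T1-CM. It was 6.67-fold higher with DMSO and 4.43-fold higher with CH223191. The glutathione transferase gene *Gsta3* had 40 and 56 reads against 132 and 116. *Gsta4* had 1 and 2 against 10 and 9, with a log2 ratio of 2.69 with DMSO (0.37 to 8.63) and 1.90 with CH223191 (-0.13 to 5.39). *Gsta4* reached the filter of 10 reads only in 4T1-CM with DMSO. Its place among the higher genes is thus tied to the filter. *Gpx3*, the secreted glutathione peroxidase, was lower, with 166 and 207 reads against 76 and 85. *Slc3a2*, the heavy chain that carries xCT to the cell surface, was lower where *Slc7a11* was higher, with 7155 and 7032 reads in normal medium against 5463 and 5049 in 4T1-CM, a log2 ratio of -0.52 with DMSO (-0.58 to -0.47). With CH223191 the list counted 3 higher and 2 lower in 4T1-CM, the added gene being *Mgst3*, and its median was -0.20. Between CH223191 and DMSO, 0 of the 15 passed 2-fold in either medium. Of all genes, 4.84% were higher and 3.31% lower in normal medium, and 2.75% and 2.66% in 4T1-CM. In normal medium 13 of the 15 lay above 0, with a median of 0.32, where *Gclc*, *Gclm* and *Slc7a11* lay below 0.

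Of 11 other thioredoxin genes, 2 were higher in 4T1-CM with DMSO, and 0 were lower. They were *Prdx5*, a mitochondrial and peroxisomal peroxiredoxin with 3210 and 4531 reads against 8367 and 7790, and *Prdx6* with 1514 and 1545 against 3659 and 3565. These 2 peroxiredoxins were thus higher where *Prdx1* was lower, but the family did not go 1 way. *Prdx3* was lower as well, at a log2 ratio of -0.38 with DMSO and -0.29 with CH223191. *Prdx2* was at 0.44 and -0.11, and *Prdx4* at 0.19 and 0.36. With CH223191 *Prdx6* was higher at a log2 ratio of 1.18 and *Txnrd2*, the mitochondrial thioredoxin reductase, lower at -1.21. *Txn1*, the thioredoxin that *Txnrd1* reduces, had the lowest log2 ratio of the list with DMSO at -0.69, with 11032 and 12098 reads against 7506 and 7645. The medians of the list were 0.07 with DMSO and 0.12 with CH223191. Of 8 other NADPH genes, 7 had enough reads and 0 passed 2-fold either way, with medians of -0.36 and -0.38. *Me2*, a mitochondrial malic enzyme, was the highest at 0.70 and 0.47, and *Taldo1* of the pentose phosphate pathway was the lowest with CH223191 at -0.73.

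Of 13 other known NRF2 targets, 5 were higher and 1 lower in 4T1-CM with DMSO, beside 12.2% and 6.11% of all genes. The median log2 ratio was 0.16. The ferritin heavy chain *Fth1* was the most abundant, with 216149 and 186084 reads in normal medium and 671597 and 590562 in 4T1-CM. *Hmox1*, the haem oxygenase, had 7506 and 10816 reads against 20252 and 19179. The scavenger receptor gene *Marco* had 0 reads in both libraries in normal medium and 64 and 50 in 4T1-CM. It passed the filter on low counts through the 4T1-CM libraries alone. Its place among the higher genes, with DMSO and with CH223191, is thus tied to the filter. Against a floor of 3 reads per library that is at least 19.4-fold higher with DMSO and at least 16.3-fold higher with CH223191. *Aox1* had 19 and 24 reads against 76 and 89, and *Nqo1*, which AHR also controls, 28 and 18 against 70 and 33. *Ephx1*, an epoxide hydrolase, was the lower gene, with 1050 and 1292 reads against 200 and 231, or 5.75-fold and 5.70-fold lower. The log2 ratios of the list with DMSO were thus spread to both sides of 0, 7 above and 6 below, while the 2-fold changes were mostly higher. With CH223191 it counted 3 higher and 1 lower, with a median of 0.33. Both medians were the same with *Marco* at its bound, which was fixed in advance because the bound also lies above them.

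**Figure D4:**
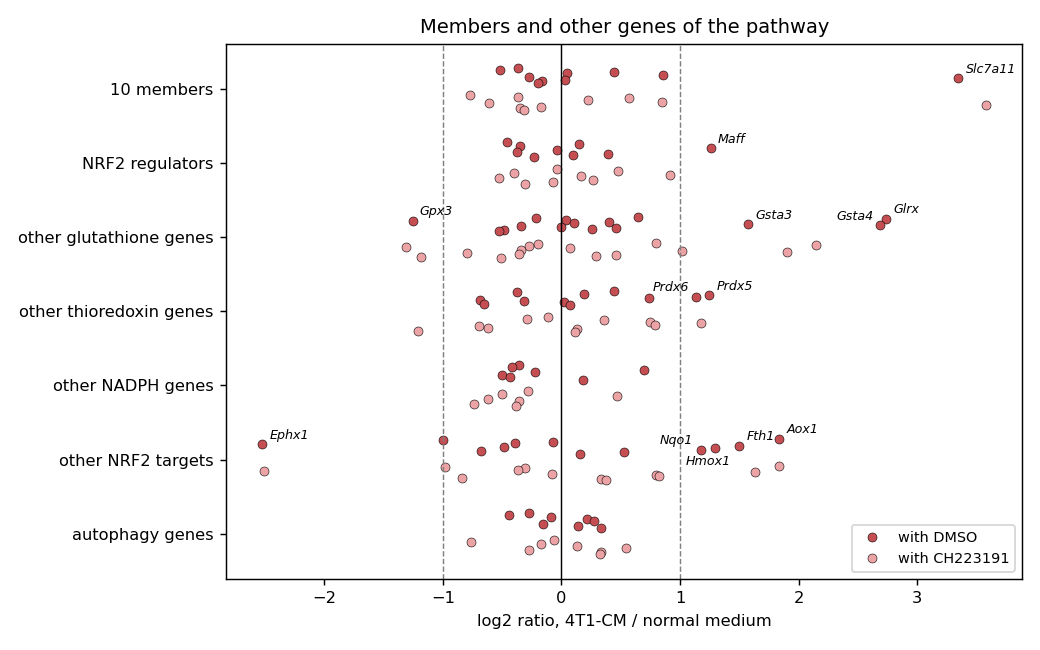
Log2 ratio of 4T1-CM to normal medium for the 10 genes and for 6 lists of related genes, with DMSO (dark points) and with CH223191 (pale points). Each point is a gene, dashed lines mark 2-fold, and genes past 2-fold with DMSO are named; *Marco*, with 0 reads in normal medium, has no point. The 10 genes, the NRF2 regulators and the autophagy and NADPH genes lie mostly between the dashed lines. The 2-fold changes of the glutathione list and of the other NRF2 targets go to both sides, more of them higher than lower.

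Further lists stand beside single members. Of 8 autophagy genes, set beside *Sqstm1*, 0 passed 2-fold in 4T1-CM with DMSO or CH223191, and their medians were 0.03 and 0.04. With DMSO they ran from -0.44 for *Gabarapl1* to 0.33 for *Wdfy3*. Of 5 genes of the ATF4 pathway, set beside *Slc7a11* because ATF4 is known to act on it, 0 were higher and 1, *Ddit3*, was lower, with 376 and 445 reads against 157 and 179. *Asns* was the highest of that list, at 0.41 (0.24 to 0.59) with DMSO and 0.58 with CH223191, and *Atf4* itself had 3478 and 3522 reads against 3514 and 3408. Of 5 AHR genes, 3 were higher in 4T1-CM in each comparison and 0 were lower. *Cyp1b1*, a gene that AHR induces, was the lowest of that list with CH223191, at -1.75 in normal medium and -0.97 in 4T1-CM.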

How the data were processed

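RNA-seq was made from 4 cultures of peritoneal macrophages, 1 per condition, from total RNA taken with TRIzol and a NEBNext Ultra RNA kit. The deposited file is a single table of raw counts for 54532 genes, which the authors did not normalize. The submitters' processing notes name HISAT2 2.0.5 and DESeq2. The study's methods name featureCounts for alveolar macrophage RNA-seq, and whether it was used here, with what annotation and strand setting, is not given in the sources used here. Columns were matched to samples by their names, with RPMI read as normal medium and TCM as 4T1-CM.

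The 13715 genes that reached 10 reads in any library were kept. Libraries were scaled with TMM (factors 0.986 to 1.03) in edgeR 4.0.16 (R 4.3.3), and log2 ratios were taken with a prior count of 0.5. Intervals are exact Clopper-Pearson intervals at 95% (scipy 1.17.1). Additive fits used the quasi-likelihood test of edgeR and the Wald test of DESeq2 1.42.0, with Benjamini-Hochberg adjustment. With edgeR this was over all 13715 genes kept. DESeq2 gave an adjusted p to 12917 of them for medium and to 9992 for CH223191, and its shares are of these. RPKM used the gene lengths in the table. The additive fit of edgeR was tested on simulated data in which the changes were far larger than those of most of the 10 genes. That test does not show how smaller changes are called. Gene positions, which matched those of GENCODE M21 (GRCm38) for all 10 genes, and 50-base words come from that annotation, and promoters from RefSeq (8 of 10 genes matched). Other tools were Python 3.11.15, numpy 2.4.6, pandas 2.3.3 and matplotlib 3.10.9. All 10 genes are named by rule, which also allowed the highest, lowest and most abundant gene of each list to be named. The members and lists were chosen with earlier results of these data known. The alternatives were other scaling, filters, prior count and fold. A genome sequence was not used here.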

Additional observations from a re-analysis of the deposited data

Results flagged for a closer look

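The ratio of CH223191 to DMSO went opposite ways in normal medium and in 4T1-CM for 4 of the 10 genes, with every counting interval off 0. *Prdx1* stood at a log2 ratio of 0.248 with normal medium and -0.0949 with 4T1-CM. *G6pdx* stood at 0.253 and -0.144, *Srxn1* at 0.0582 and -0.124, and *Sqstm1* at 0.079 and -0.12. Scaled by total counts alone, *Srxn1* was at 0.00 and *Sqstm1* at 0.02 in normal medium. Each condition has 1 library, so the difference was not tested, and differences of this size between 2 cultures of 1 condition could not be measured here.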

How the results depend on the processing

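The number of genes called, the sign of each median and the direction of each called value held under size factors of DESeq2, total counts, no filter, a filter of 10 reads in each library, a prior count of 5 and protein-coding genes alone. The median of the 10 genes moved by over 1.5 times in 3 cases. With total counts it was -0.12 in place of -0.07 for CH223191 in normal medium and -0.11 in place of -0.07 for 4T1-CM with DMSO, and with 10 reads in each library the latter was -0.04. With total counts 6 of the single log2 ratios left their counting intervals, and none of the called ones did. *Prdx1* was then at -0.31 in 4T1-CM with DMSO and at 0.19 with CH223191 in normal medium, and *Srxn1* at 0.00 in the latter. *Sqstm1* in 4T1-CM with DMSO (-0.01) and *Txnrd1* with CH223191 in normal medium (-0.04) changed sign, both from values whose intervals included 0. At 1.5-fold in place of 2-fold, 2 genes were higher in 4T1-CM with DMSO, with CH223191 and in both (*Slc7a11* and *Me1*), and 2 were lower with CH223191 (*Prdx1* and *G6pdx*). At that fold 1 gene, *Me1*, was lower with CH223191 in normal medium, in 4T1-CM and in both. The background shares at 1.5-fold were 20.1% higher and 15.2% lower with DMSO, and 20.9% and 17.5% with CH223191. For CH223191 against DMSO the shares lower at that fold were 7.5% (normal medium) and 6.15% (4T1-CM). The additive fit called 3 genes higher and 3 lower in 4T1-CM with edgeR, and 2 and 2 with DESeq2. With the stricter filter, the background shares of genes 2-fold higher and lower were 7.23% and 4.24% for 4T1-CM with DMSO, and 7.39% and 5.75% with CH223191. For CH223191 they were 1.92% and 0.756% in normal medium, and 0.705% and 0.45% in 4T1-CM, against 4.84%, 3.31%, 2.75% and 2.66% with the filter used. No paired analysis was possible because each condition has 1 library and the labels give no replicate numbers. Leaving out a library was not possible for the same reason. Depth limits *Me1* most, since its 40 to 126 reads give intervals wider than those of the other genes, though they lay off 0. Intervals of *Gclc*, *Gsr*, *Txnrd1* and *Sqstm1* included 0 in 1 or 2 comparisons. Variation between cultures could not be measured.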
